A study of Mus musculus with 10 samples.

Results

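The genes described here mark podocytes and the slit diaphragm of the kidney glomerulus. The rule names 8 marker genes and uses no measured value, although the list was drawn up with earlier results of these data known. All 8 of them (Nphs1, Podxl, Wt1, Synpo, Ptpro, Magi2, Clic5 and Cd2ap) were found among the 13837 genes with deposited values. RNA was measured in whole kidneys of 3-month-old mice, 5 Rragc+/+ and 5 Rragc S74N/+, with 1 library per mouse. Rragc encodes RagC, a small GTPase that passes amino acid sufficiency on to mTORC1, the kinase complex that drives cell growth. In the S74N allele, made by CRISPR editing in C57BL/6 mice, RagC carries asparagine in place of serine and behaves like the GDP-bound, active form. The allele is heterozygous and present in every cell of the body, so that podocytes, tubules, vessels and immune cells all carry it, and the Rragc+/+ mice are the unedited comparison. The labels give no treatment for either genotype. The comparison asks whether transcripts of podocytes differ between kidneys of young adult mice with and without this mild, lasting activation of nutrient signaling.

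Podocytes are the epithelial cells that wrap the glomerular capillaries. Their foot processes interlock, and the gaps between them are bridged by the slit diaphragm, a modified cell junction built on nephrin that holds back plasma protein. The cells hardly divide, and their shape depends on a contractile actin skeleton, on a negatively charged surface coat and on adhesion to the glomerular basement membrane. Podocytes are sensitive to mTORC1 in either direction, and deletion of the mTORC1 inhibitor Tsc1 in them is known to cause glomerular disease in mice.

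Of the 8 podocyte genes, Synpo and Ptpro were higher in Rragc S74N/+ kidneys and 6 did not pass the test. Synpo rose by 0.52 on the log2 scale (95% interval 0.25 to 0.78, limma adjusted p = 0.0261) and Ptpro by 0.75 (0.36 to 1.14, limma adjusted p = 0.0298), which correspond to 1.43-fold and 1.65-fold higher means. Among all 13197 genes tested, 3.69% passed in either direction and 1.67% were higher in Rragc S74N/+. The other members had log2 fold changes from -0.24 (Nphs1) to 0.17 (Wt1), and all 95% intervals of these 6 genes spanned 0. No member was lower past the threshold. The median log2 fold change of the 8 genes was -0.03, beside 0.00046 over all genes tested, and 4 members were above 0 and 4 below. The test was limma on log2(normalized count + 1), with Benjamini-Hochberg adjustment over all genes tested and a threshold of 0.05. A normalized count is the number of reads of a gene divided by a size factor of its library, and the added 1 slightly understates changes of genes with low counts. The calls of Synpo and Ptpro were each lost in 5 of 10 fits on 9 mice, with a different mouse omitted each time, and both were lost when limma was run without its trend of variance on expression (adjusted p = 0.0952 and 0.0836).

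**Figure D1:**
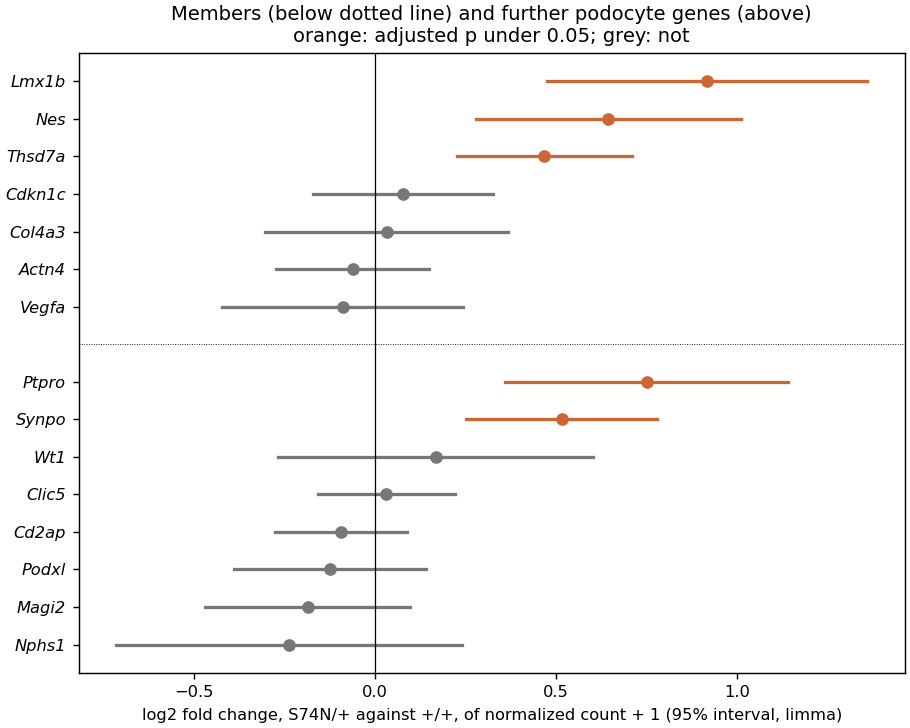
Log2 fold changes of Rragc S74N/+ against Rragc+/+ kidneys (x axis, on the log2(normalized count + 1) scale) for the 8 members, below the dotted line, and 7 further podocyte genes above it. Points are limma estimates, lines are 95% intervals and orange marks genes that passed. Ptpro at 0.75 and Synpo at 0.52 stand to the right of 0, and the lines of the 6 other members cross it.

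Depth was similar, with 6501552 to 7856363 reads assigned to genes per Rragc+/+ library and 6872310 to 7996087 per Rragc S74N/+ library. Reads of the mitochondrial genome took 24.5 to 30.1% in Rragc+/+ and 23.9 to 27.1% in Rragc S74N/+. Library codes form a pair of runs, and the first of them holds 2 Rragc+/+ mice and 1 Rragc S74N/+ mouse. What these runs stand for is not stated. Within the second run, mitochondrial reads took 28.7 to 30.1% in Rragc+/+ and 23.9 to 25.8% in Rragc S74N/+ libraries, without overlap. In the first run they took 25.7 and 24.5% in Rragc+/+ and 27.1% in Rragc S74N/+. Rragc had a log2 fold change of -0.40 (adjusted p = 0.0678), and as the edit changes a codon, its level does not check the genotype labels. The defining podocyte genes were detected in every library, with the lowest value of a member at 14.8 normalized counts, for Nphs1.

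Promoter sequences are shown for 4 of the 5 podocyte genes that rose, all but Synpo, since these genes passed in the same direction. Those of Nphs1, the gene of the central slit diaphragm protein, and Magi2, neither of which passed, are shown beside them. RefSeq's promoter table on GRCm38.p6 runs from 250 bases before to 50 bases after a start site. With Synpo set aside, it held 6 promoters of 5 members (Cd2ap, Clic5, Magi2, Nphs1 and Ptpro). Those of all 3 further podocyte genes that rose (Lmx1b, Nes and Thsd7a) were also in it. The expression values were made on GRCm39, and no coordinates were converted. Sequences run 5′ to 3′ along the strand of the gene. Capitals mark matches to 5 short motifs, searched on both strands and chosen with the members' results known. These are CACGTG (the E-box core of the CLEAR element bound by TFEB), GCGTGGG (the core shared by WT1 and EGR factors), TAATTA (a homeodomain core of the LMX1B type), CAGCTG (an E-box of the TCF21 type) and GTAAACA (forkhead).
Ptpro promoter, chr6:137252049-137252348, + strand: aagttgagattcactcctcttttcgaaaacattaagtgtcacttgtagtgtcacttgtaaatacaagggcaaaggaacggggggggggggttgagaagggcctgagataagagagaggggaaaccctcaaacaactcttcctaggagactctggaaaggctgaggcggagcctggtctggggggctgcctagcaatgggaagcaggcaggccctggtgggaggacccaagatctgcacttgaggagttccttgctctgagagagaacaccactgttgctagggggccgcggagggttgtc
Nphs1 promoter, chr7:30459808-30460107, + strand: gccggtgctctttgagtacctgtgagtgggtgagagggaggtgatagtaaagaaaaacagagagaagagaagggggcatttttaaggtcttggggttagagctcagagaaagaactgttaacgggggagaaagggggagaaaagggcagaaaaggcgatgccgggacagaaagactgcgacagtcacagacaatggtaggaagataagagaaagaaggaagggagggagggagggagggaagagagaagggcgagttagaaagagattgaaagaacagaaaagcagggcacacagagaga
Lmx1b promoter, chr2:33641049-33641348, - strand: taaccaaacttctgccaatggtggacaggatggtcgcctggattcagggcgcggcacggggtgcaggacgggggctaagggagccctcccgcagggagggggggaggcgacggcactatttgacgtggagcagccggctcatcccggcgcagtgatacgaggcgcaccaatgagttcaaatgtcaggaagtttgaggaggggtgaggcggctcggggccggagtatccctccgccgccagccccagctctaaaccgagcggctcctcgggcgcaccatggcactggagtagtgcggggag
Nes promoter, chr3:87970843-87971142, + strand: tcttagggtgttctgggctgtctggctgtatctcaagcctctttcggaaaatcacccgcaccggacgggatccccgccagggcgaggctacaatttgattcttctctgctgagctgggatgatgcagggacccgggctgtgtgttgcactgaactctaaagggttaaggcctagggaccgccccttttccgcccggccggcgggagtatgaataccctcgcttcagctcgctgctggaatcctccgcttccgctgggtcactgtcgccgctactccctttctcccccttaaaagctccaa
Thsd7a promoter, chr6:12749204-12749503, - strand: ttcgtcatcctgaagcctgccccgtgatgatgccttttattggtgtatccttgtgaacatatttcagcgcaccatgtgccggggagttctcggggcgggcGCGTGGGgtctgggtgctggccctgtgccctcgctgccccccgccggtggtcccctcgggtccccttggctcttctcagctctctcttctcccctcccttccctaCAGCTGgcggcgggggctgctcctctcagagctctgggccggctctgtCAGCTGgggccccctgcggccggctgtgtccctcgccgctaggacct
Magi2 promoter, chr5:19226796-19227095, + strand: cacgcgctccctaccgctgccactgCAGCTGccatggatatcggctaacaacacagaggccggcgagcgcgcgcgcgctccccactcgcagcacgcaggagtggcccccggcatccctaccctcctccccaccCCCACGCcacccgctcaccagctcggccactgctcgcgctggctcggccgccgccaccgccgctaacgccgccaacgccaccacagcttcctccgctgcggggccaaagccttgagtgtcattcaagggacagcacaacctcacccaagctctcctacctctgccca

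The Ptpro, Nphs1, Lmx1b and Nes windows held 0 matches to these motifs, which says only that these letters are not in 300 bases around that start. Thsd7a held GCGTGGG at -150 and CAGCTG at -45 and 4, counted from 1 at the start site with negative positions before it. The Magi2 window shown held the same pair of motifs, CAGCTG at -225 and GCGTGGG, on the opposite strand, at -117, and Magi2 did not pass the test. Among the promoters not printed, Cd2ap held CAGCTG at -120, a downstream Magi2 promoter TAATTA at -227 and Clic5 no match. No matches overlapped in these windows. Over all 32851 promoters of that length, 5.04% held GCGTGGG, 16.3% CAGCTG, 5.29% TAATTA, 7.15% CACGTG and 3.65% GTAAACA. Matches of this kind are descriptions of sequence and not evidence of binding.

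Synpo encodes synaptopodin, an actin-associated protein of foot processes that holds stress fibers together and is a marker of differentiated podocytes. Its normalized counts were 280.2, 198.3, 251.8, 205.8 and 208.2 in the 5 Rragc+/+ kidneys, in replicate order, and 363.3, 263.9, 319.5, 300.5 and 393.1 in the 5 Rragc S74N/+ kidneys. All 5 Rragc S74N/+ kidneys were above the Rragc+/+ mean and 4 were above the highest Rragc+/+ kidney, while the second Rragc S74N/+ kidney fell below the first Rragc+/+ kidney. The means were 229 ± 35.5 (SD, n = 5) and 328 ± 51.1 (SD, n = 5). The log2 fold change ranged from 0.45 to 0.59 when each mouse was left out in turn. The call was lost without Rragc+/+ replicate 2, 4 or 5 and without Rragc S74N/+ replicate 1 or 5, with an adjusted p of 0.0852 at the most. In the second run of library codes alone, with 3 Rragc+/+ and 4 Rragc S74N/+ mice, the log2 fold change was 0.51 and the adjusted p 0.0761.

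Ptpro encodes GLEPP1, a receptor tyrosine phosphatase on the apical surface of foot processes. The Rragc+/+ kidneys had 82.2, 66.7, 40.8, 67.5 and 44.8 normalized counts, and the Rragc S74N/+ kidneys had 121.4, 79.9, 91.4, 103.8 and 103.1. As with Synpo, 5 of 5 Rragc S74N/+ kidneys lay above the Rragc+/+ mean and 4 above the highest Rragc+/+ kidney, and the overlap came from the second Rragc S74N/+ and the first Rragc+/+ kidney. Mean values were 60.4 ± 17.2 (SD, n = 5) and 99.9 ± 15.5 (SD, n = 5). Left-out mice moved the log2 fold change between 0.62 and 0.87, and the call was lost without Rragc+/+ replicate 3 or 5 and without Rragc S74N/+ replicate 1, 4 or 5 (adjusted p at most 0.0975). Within the second run of codes it was 0.90, with a limma adjusted p of 0.0294. Inside each run of codes, every Rragc S74N/+ kidney was above every Rragc+/+ kidney for both Synpo and Ptpro. The first run holds only 1 Rragc S74N/+ and 2 Rragc+/+ mice, and the share of all genes separated in this way was not counted. Synpo and Ptpro also passed by edgeR (adjusted p = 0.0278 for Synpo and 0.0368 for Ptpro) and by DESeq2 (0.0062 and 0.0084) on reads recovered from the deposited values.

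**Figure D2:**
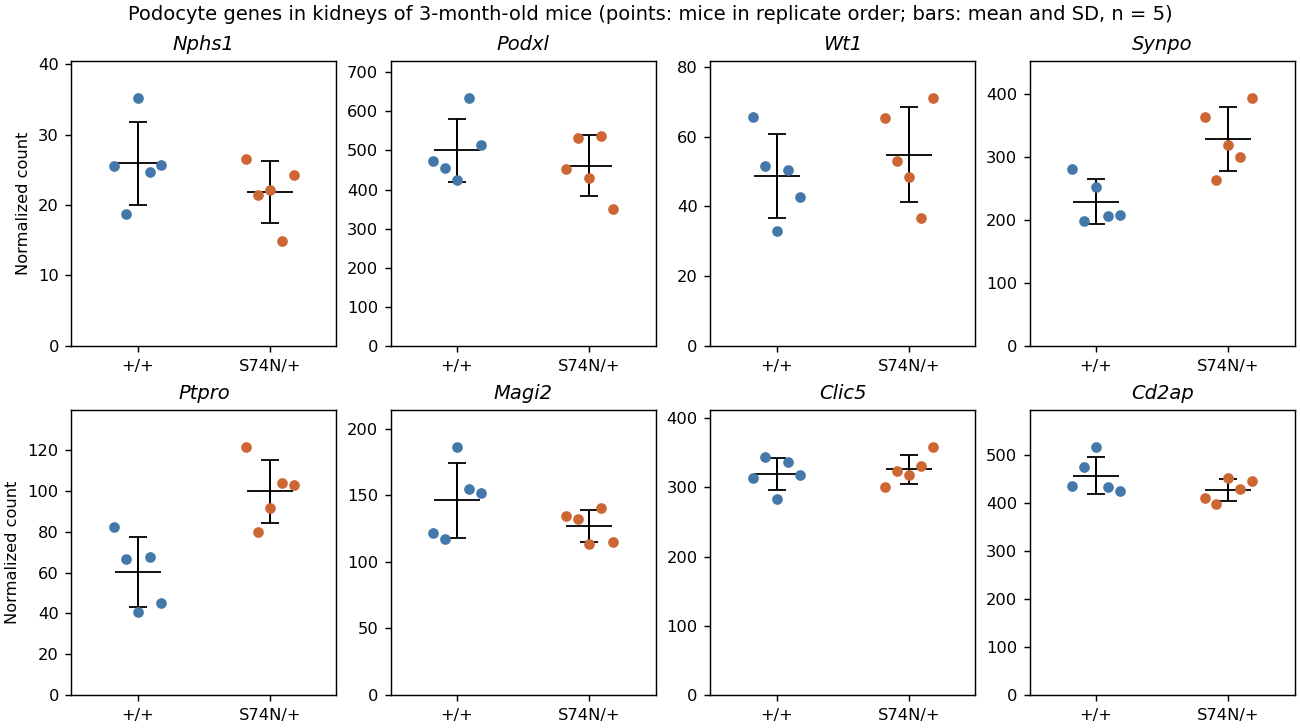
Normalized counts of the 8 podocyte genes (y axis, from 0) in each kidney, by genotype (x axis). Points are mice and bars give mean and SD (n = 5 per genotype). For Synpo and Ptpro, 4 of the 5 Rragc S74N/+ points are above every Rragc+/+ point, whereas the points of the 6 other genes overlap more widely.

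Wt1, Podxl and Clic5 complete the transcription factor, surface coat and cytoskeletal linkers among the members, and none of them passed. Wt1, the zinc finger transcription factor that maintains podocyte identity, had 65.7, 51.6, 32.9, 50.4 and 42.7 normalized counts in Rragc+/+ and 65.4, 52.96, 48.3, 36.6 and 71.0 in Rragc S74N/+ kidneys. Its values overlapped nearly throughout, and the log2 fold change was 0.17 (95% interval -0.27 to 0.60, limma adjusted p = 0.772). Podxl encodes podocalyxin, the main sialoprotein of the podocyte surface coat, and is also made by vascular endothelium. It had 472, 456, 425, 634 and 515 normalized counts in Rragc+/+ and 453, 531, 430, 538 and 350 in Rragc S74N/+ kidneys. The highest value was in a Rragc+/+ mouse and the lowest in a Rragc S74N/+ mouse, with the others intermixed, and the log2 fold change was -0.12 (95% interval -0.39 to 0.14, limma adjusted p = 0.723). Clic5, which links podocalyxin and ezrin to actin, had the fold change nearest to 0, at 0.03 on the log2 scale (95% interval -0.16 to 0.22, limma adjusted p = 0.914). Rragc+/+ kidneys had 284 to 344 normalized counts of it and Rragc S74N/+ kidneys 301 to 358. For Clic5 the interval excludes changes of the size estimated for Synpo and Ptpro, while for Wt1 it does not exclude that of Synpo.

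Nphs1, Magi2 and Cd2ap belong to the slit diaphragm complex itself, and all had log2 fold changes below 0 that did not pass. Nphs1 encodes nephrin, the adhesion protein that spans the slit. It had 25.6, 18.7, 35.2, 24.7 and 25.6 normalized counts in Rragc+/+ and 26.6, 21.4, 22.1, 14.8 and 24.3 in Rragc S74N/+ kidneys. The extremes were a high Rragc+/+ and a low Rragc S74N/+ kidney and the remaining values lay close together, giving a log2 fold change of -0.24 (95% interval -0.71 to 0.24, limma adjusted p = 0.70). With on average 25.4 and 22.4 reads per library, the coefficient of variation between mice was 22.8% and 20.2%, and counting alone gives 19.8% and 21.1%. Changes of Nphs1 within its 95% interval are not excluded. Magi2, a scaffold that binds nephrin, had 121.4, 117.4, 186.0, 154.4 and 151.6 normalized counts in Rragc+/+ and 134.7, 131.9, 113.5, 140.4 and 114.8 in Rragc S74N/+ kidneys. All 5 Rragc S74N/+ kidneys were below the Rragc+/+ mean but only replicates 3 and 5 of them below every Rragc+/+ kidney, and the log2 fold change was -0.19 (95% interval -0.47 to 0.10, limma adjusted p = 0.58). Cd2ap, the adaptor that ties nephrin to actin and is also expressed in tubules, had 425 to 516 normalized counts in Rragc+/+ kidneys, beside 399 to 453 in Rragc S74N/+ kidneys. The difference on the log2 scale was -0.09 (95% interval -0.27 to 0.09, limma adjusted p = 0.688), with 5 of 5 Rragc S74N/+ kidneys below the Rragc+/+ mean.

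The groups overlapped for all 8 members, so 0 of 8 were separated by genotype, beside 5% of all genes tested (660 of 13197). In bulk RNA of a whole kidney, a different number of podocytes and a different amount of RNA per podocyte cannot be told apart. The summed normalized counts of the 8 genes were 1728 to 1906 in Rragc+/+ (mean 1786 ± 72.7, SD, n = 5) and 1795 to 1895 in Rragc S74N/+ (1846 ± 44.3, SD, n = 5). Without Synpo and Ptpro, the sum of the 6 other members was 1434 to 1633 in Rragc+/+ and 1365 to 1491 in Rragc S74N/+. On the scale of each kidney's own members, as log2(normalized count + 1) minus the mean of the 6 genes that did not pass, Ptpro lay between -1.90 and -0.90 in Rragc+/+ and between -0.88 and -0.34 in Rragc S74N/+. Here the genotypes of Ptpro did not overlap, whereas Synpo, at 0.34 to 0.86 and 0.83 to 1.38, did by a narrow margin. This comparison was set up after the values were seen and has no test. Its reference leaves out the genes that passed, which favors a difference, and the share of all genes separated on this scale was not counted.

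**Figure D3:**
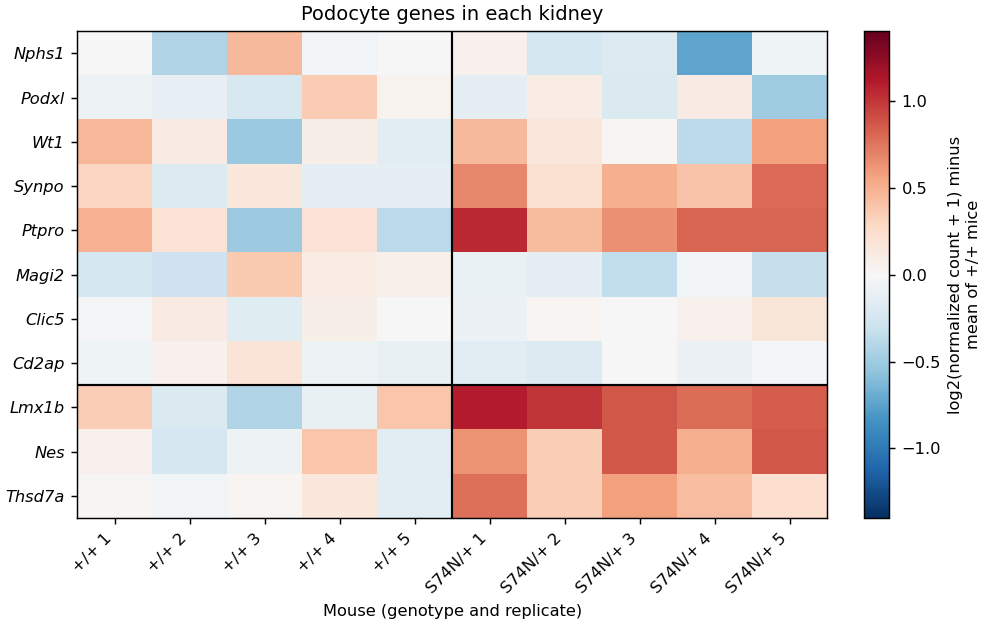
Heat map of 11 podocyte genes (rows; members above the horizontal line) in each of the 10 kidneys (columns). Color is log2(normalized count + 1) minus the Rragc+/+ mean, red above and blue below. The Synpo and Ptpro rows are red in all 5 Rragc S74N/+ columns, as are Lmx1b, Nes and Thsd7a. In the same columns Nphs1 and Podxl hold both colors, and Magi2 lies below 0 in all 5.

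Variation from mouse to mouse was not shared by the members. After each genotype's mean was taken out, Pearson's r over the 10 mice was above 0 for 14 of the 28 pairs of members, with a median of -0.03. It was highest for Wt1 and Ptpro (0.68) and lowest for Wt1 and Magi2 (-0.68), and Synpo and Ptpro, the members that rose, had 0.34. All genes of a pair share libraries and size factors, and these values are a description with no test. The genes most like the members were found by correlation with the mean z-score of the 8 genes over the 10 mice, again within genotype. Among 13189 genes ranked, the first 10 were Wdr7 (r = 0.92), Rnf186, Snx20, Gm44250, Bscl2, Neurl3, Adprh, Sema3f, Kcnk3 and Mterf1a (0.87), none of which is in the podocyte lists used here. With this many genes ranked over 10 mice, high r at the top can arise by chance, and the ranking has no test. The 58 further podocyte genes had a median r of 0.14, beside -0.0027 over all ranked genes. They spread widely, from Nes at 0.69 and Efnb1 at 0.68 to Rhpn1 at -0.56 and Foxc1 at -0.59.

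Further podocyte genes were read from 5 lists, of slit diaphragm partners, actin regulators of foot processes, transcription factors, basement membrane and adhesion genes, and other podocyte genes. Of 65 genes listed, 58 were tested. Of these, 3 passed, all higher in Rragc S74N/+. They are 5.17% of the genes tested, beside the 3.69% of all genes that passed in either direction and the 1.67% that passed higher, so that the share is close to the first of these. In the 58 genes, 34 fold changes were above 0 and 24 below, with a median of 0.02. Their Rragc+/+ means ran from 9.7 (Sulf1) to 2585 (Ezr) normalized counts. In whole kidney RNA the cells that these reads came from were not separated, so the median is not a value of podocytes alone. Kirrel, Kirrel2, Kirrel3, Trpc6, Anln, Foxd1 and Crb2 were not analysed here. The podocyte genes that rose, members included, are thus Ptpro, Synpo, Lmx1b, Nes and Thsd7a.

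Lmx1b, a homeodomain transcription factor needed for podocyte differentiation and mutated in nail-patella syndrome, had the largest log2 fold change of the podocyte genes that passed. Its normalized counts were 23.7, 16.01, 13.6, 17.2 and 24.6 in Rragc+/+ and 40.8, 38.1, 34.7, 32.6 and 34.1 in Rragc S74N/+ kidneys. Every Rragc S74N/+ kidney was above every Rragc+/+ kidney. The genotypes were separated for 2 of the 58 further podocyte genes, Lmx1b and Thsd7a, beside 5% of all genes tested. The log2 fold change of Lmx1b was 0.92 (95% interval 0.48 to 1.36, limma adjusted p = 0.0177). The call held in 9 of 10 fits with a mouse left out, all but that without Rragc S74N/+ replicate 1 (adjusted p = 0.0559), and in the second run of codes the log2 fold change was also 0.92 (adjusted p = 0.0824). The transcription factors Foxc1, Foxc2, Tcf21 and Dach1 lay between -0.20 and 0.21 and did not pass, and the list's median was 0.09.

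Thsd7a encodes a membrane protein of foot processes that is a target of autoantibodies in membranous nephropathy. It had 152, 146, 153, 167 and 136 normalized counts in Rragc+/+ and 257, 190, 224, 203 and 177 in Rragc S74N/+ kidneys. The genotypes did not overlap, as with Lmx1b, and the log2 fold change of Thsd7a was 0.47 (95% interval 0.23 to 0.71, limma adjusted p = 0.0288). Leaving out Rragc+/+ replicate 2 or 5 or Rragc S74N/+ replicate 1, 3 or 4 ended the call (adjusted p at most 0.0945). The remaining 15 genes of its list did not pass, among them Vegfa, the growth factor by which podocytes sustain the glomerular endothelium (-0.09), the cell cycle inhibitor Cdkn1c (0.08), the guidance receptor Robo2 (-0.38, limma adjusted p = 0.169) and the phospholipase receptor Pla2r1 (-0.27).

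Nes encodes nestin, an intermediate filament protein that podocytes keep in the adult kidney. It had 37.4, 30.2, 34.02, 47.2 and 32.0 normalized counts in Rragc+/+ and 56.0, 45.5, 66.2, 51.4 and 66.2 in Rragc S74N/+. Only the second Rragc S74N/+ kidney fell below the highest Rragc+/+ kidney. The log2 fold change was 0.65 (95% interval 0.28 to 1.01, limma adjusted p = 0.0474), close to the threshold. With edgeR the adjusted p was 0.0517 and with a total without mitochondrial genes 0.069, so that both lost the call, and it was kept in 2 of 10 fits on 9 mice, those without Rragc+/+ replicate 4 and without Rragc S74N/+ replicate 2. The 10 other actin regulators did not pass. Actn4, the actin crosslinker mutated in familial focal segmental glomerulosclerosis, had -0.06, Inf2, a formin, 0.37, and Myo1e, a myosin of foot processes, -0.25. The list's median was 0.03.

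No slit diaphragm partner passed (0 of 12), and neither did a basement membrane or adhesion gene (0 of 13), beside 3.69% of all genes tested. At an unadjusted p under 0.05, 1 of the 12 and 2 of the 13 were found by limma, and edgeR and DESeq2 gave the same counts before and after adjustment. Tjp1, the junction adaptor ZO-1, had a log2 fold change of -0.17 (95% interval -0.54 to 0.21), and Plce1, a phospholipase mutated in familial nephrotic syndrome, had 0.34 (-0.02 to 0.71, limma adjusted p = 0.367). Col4a3, a chain of the mature basement membrane collagen, had 0.03, and its partners Col4a4 and Col4a5 had -0.02 and 0.03. Itga3, the integrin chain that binds podocytes to laminin, had 0.51 (95% interval 0.09 to 0.92, limma adjusted p = 0.201), and Cd151, the tetraspanin bound to it, 0.22 (0.01 to 0.43, limma adjusted p = 0.299).

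**Figure D4:**
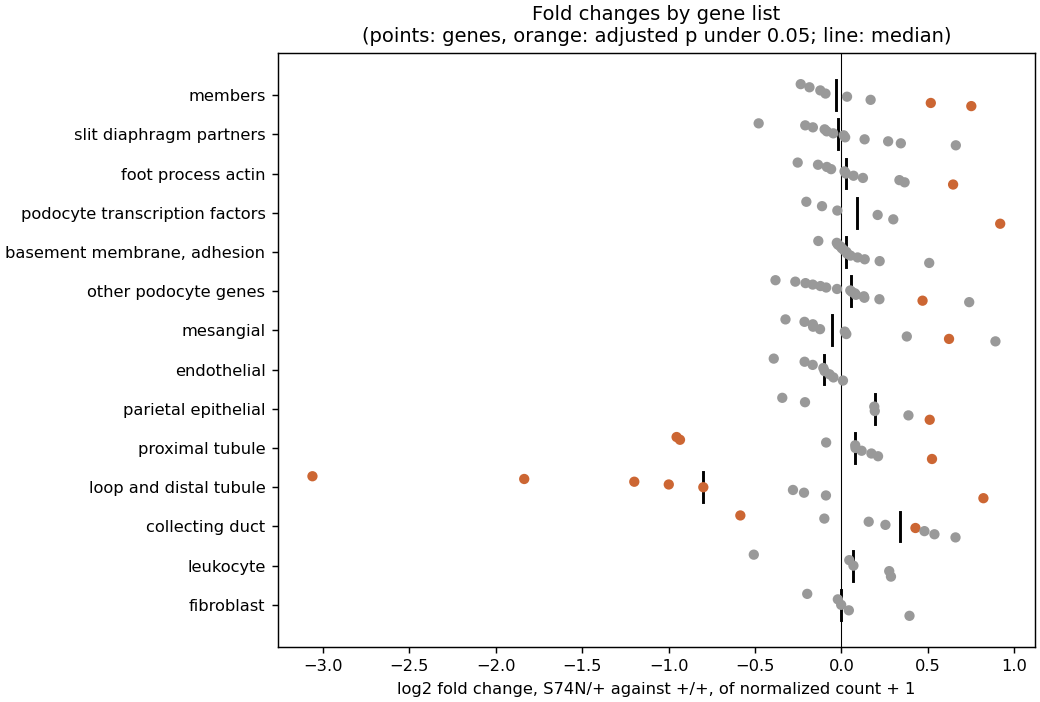
Log2 fold changes (x axis, on the log2(normalized count + 1) scale) of every tested gene of the 8 members, 5 further podocyte lists and 8 lists of other kidney cell types (y axis). Points are genes, orange if they passed, and black lines are list medians. In the podocyte lists the orange points are all on the right and the medians lie between -0.03 and 0.09, while 5 of 9 loop and distal tubule genes passed on the left.

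Genes of neighbouring glomerular cells were read in the same fit. In the endothelial list, 0 of 8 genes passed by limma, edgeR or DESeq2 (1 at an unadjusted p under 0.05 by each), 7 were below 0 and the median was -0.10. The summed endothelial level was 2825 to 3253 normalized counts in Rragc+/+ and 2468 to 3248 in Rragc S74N/+, which stands beside the value of Podxl, a gene that both cell types express. Of 10 mesangial genes, 1 passed, Serpine2, a protease inhibitor (0.62, limma adjusted p = 0.0288), whose call was lost in 5 of 10 fits on 9 mice, without the trend (0.107), without mitochondrial genes in the total (0.0545) and in the second run of codes (0.0834). The summed mesangial level was 1081 to 1248 in Rragc+/+ and 1009 to 1465 in Rragc S74N/+. Of 6 parietal epithelial genes, Krt8 passed (0.51, limma adjusted p = 0.0034), a keratin also found in tubule epithelium. The part of these cells in the podocyte results was not tested.

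Tubule markers held larger log2 fold changes than the podocyte genes, down to -3.06 for Pvalb. In the list of loop and distal tubule, 5 of 9 genes were lower (Umod, Kcnj1, Slc12a3, Pvalb and Trpm6) and Cldn16 was higher, and the summed level of these genes was 32865 to 42281 normalized counts in Rragc+/+ and 16534 to 24749 in Rragc S74N/+. Proximal tubule markers had 1 higher (Slc22a6) and 2 lower (Slc5a2 and Slc5a12) of 9, with sums of 66257 to 77103 and 71942 to 85757. Of 8 collecting duct genes, limma called Hsd11b2 higher (adjusted p = 0.0478) and Slc4a1 lower, edgeR called only Slc4a1, and DESeq2 called 5, Aqp2, Aqp3 and Scnn1g in addition to both. The call of Hsd11b2 held in 4 of 10 fits on 9 mice. The list had sums of 2104 to 2542 and 2670 to 3674. Leukocyte and fibroblast markers had 0 of 5 and 0 of 5 past the threshold by limma, edgeR or DESeq2 (1 and 0 at an unadjusted p under 0.05 by limma, 0 and 1 by edgeR, 0 and 0 by DESeq2), with sums of 1254 to 1699 and 1366 to 1703 for leukocytes and 1142 to 1277 and 876 to 2373 for fibroblasts. Their part in the values of the podocyte genes was not tested.

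**Figure D5:**
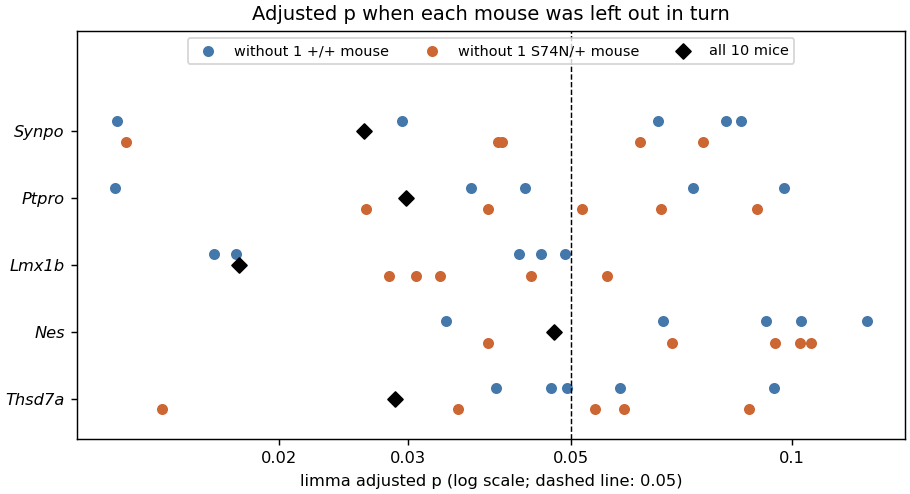
Limma adjusted p (x axis, log scale) of the 5 podocyte genes that passed, with all 10 kidneys (diamonds) and with each mouse left out in turn (circles). The dashed line is the threshold of 0.05. All diamonds are left of it, and circles to its right number 5 of 10 for Synpo, 5 for Ptpro, 1 for Lmx1b, 8 for Nes and 5 for Thsd7a.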

How the data were processed

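The authors made QuantSeq 3′ libraries from kidney RNA, aligned them to GRCm39 with TopHat2 2.0.10, counted reads per gene and strand with HTSeq 0.6.1 on GENCODE annotation, and, per the submitters' processing notes, used DESeq2. The deposited signal per gene and mouse is the read count divided by a library size factor. In every library 100% of values were whole reads after this was undone (tolerance 0.01 reads), so that counting error can be given. All 10 value columns matched a mouse and 0 did not. Multiple mapping was allowed by the aligner, so that genes with near-identical copies are uncertain.

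The values were taken as deposited and analysed as log2(value + 1) by limma 3.58.1 in R 4.3.3, with a variance trend, two-sided and without covariates. Genes needed a value of 10 or more in 5 or more mice, which 13197 of 13837 genes met, all 8 members included. Replicates are separate mice, and their numbers follow accession order and pair nothing. Named genes were the members, each gene of 5 podocyte lists that passed, fixed podocyte genes, markers of other cell types that passed, and the 10 genes most correlated with the members. The members, lists and motifs were chosen with earlier results of these data known. The limma, edgeR and DESeq2 tests were tried on simulated counts, and the other steps were not. Alternatives were pseudocounts of 0.5 and 5, dropping the filter or asking for a mean of 50 or more, TMM factors, quantile normalization, a total without mitochondrial genes, limma without its trend or with robust variances, edgeR 4.0.16 and DESeq2 1.42.0 on recovered reads, the run of library codes as a covariate or the second run alone, and leaving out each mouse. Figures used matplotlib 3.10.9 in python 3.11.15. Promoters came from RefSeq on GRCm38.p6. That of Synpo is not shown here, and some genes that the rule covers are not reported here.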

Additional observations from a re-analysis of the deposited data

Results flagged for a closer look

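Among 58 groups of 5 kidneys, formed by each named gene in each genotype, 1 held a kidney far from the others. Chance gives about 1 in 20 such groups. Umod, the uromodulin gene of the thick ascending limb, had 7760 normalized counts in Rragc S74N/+ replicate 5, and the other 4 Rragc S74N/+ kidneys had 11870 to 13510. The gap was 0.715 of the range of that group, against a critical value of 0.71. No member and no further named podocyte gene stood out in this way. Markers of other cell types that did not pass were not examined by this rule. Among the fibroblast markers, the same Rragc S74N/+ replicate 5 had 729 normalized counts of Col1a1, beside 230 to 294 in the other 4. It had 818 of Dcn, beside 281 to 451, while its 72.0 of Pdgfra lay within their 58.8 to 90.1. A part of this kidney's composition in the podocyte values was not tested.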

How the results depend on the processing

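Over 23 alternatives for each of 29 named genes, with 664 values in all, 594 kept their direction and side of the threshold, 55 no longer passed, 2 newly passed and 13 changed sign. The 2 that newly passed were both Rragc, without mitochondrial genes in the total and with DESeq2. Of the members, 2 passed in most settings, 0 without the trend of limma (2 at an unadjusted p under 0.05), 1 (Ptpro) in the second run of codes alone, and 0 to 2 when a mouse was left out. None passed without Rragc+/+ replicate 5 or Rragc S74N/+ replicate 1 or 5, only Ptpro without Rragc+/+ replicate 2 or 4, and only Synpo without Rragc+/+ replicate 3 or Rragc S74N/+ replicate 4. For the further podocyte genes the count was 3, and 1 with a mean of at least 50, where Lmx1b and Nes were not tested, 2 without the trend (Thsd7a lost, adjusted p = 0.0664), 2 with edgeR and 2 without mitochondrial genes (Nes lost in both, adjusted p = 0.0517 and 0.069), 0 in the second run alone (8 at an unadjusted p under 0.05), and 0 to 3 with a mouse left out. It was 0 without Rragc S74N/+ replicate 1, and 1, Lmx1b, without Rragc+/+ replicate 2 or 5 or Rragc S74N/+ replicate 3 or 4. Over all genes, 487 passed, 291 without the trend, 832 with the code run as covariate, 648 with DESeq2 and 480 with edgeR, and 295 to 466 with a mouse left out, fewest without Rragc+/+ replicate 5 (295) and 4 (310). A total without mitochondrial genes gave 459, 150 higher and 309 lower, against 220 and 267. The median of the members ran from -0.07 to 0.03 and was negative in 20 of 23 alternatives. Log2 fold changes that changed sign were those of Clic5 without mitochondrial genes (-0.0106) and without Rragc+/+ replicate 3 or Rragc S74N/+ replicate 5 (-0.0098 to 0.0609 over left-out mice), of Actn4 (-0.1155 to 0.0191) and Vegfa (-0.2143 to 0.0781) without Rragc S74N/+ replicate 3, and of Col4a3 without mitochondrial genes (-0.0095), with edgeR (-0.0055), with DESeq2 (-0.0055), with the covariate (-0.0330), in the second run (-0.22), and without Rragc+/+ replicate 1 or 2 or Rragc S74N/+ replicate 5 (-0.0823 to 0.1919 over left-out mice), and none of these genes passed in either sign. Where a call was lost, the cause was not tested. Among the members and the podocyte genes that passed, depth limits Nphs1 and Lmx1b most, with on average 25.4 reads of Nphs1 and 19 of Lmx1b per Rragc+/+ library and 22.4 and 37 per Rragc S74N/+ library.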

Other observations

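Wt1os, transcribed from the strand opposite to Wt1, was counted apart from it because reads were counted by strand. Its mean was 10.3 ± 4.35 normalized counts (SD, n = 5) for Rragc+/+ kidneys, and for Rragc S74N/+ kidneys it was 12.5 ± 6.23 (SD, n = 5), with a log2 fold change of 0.24 (95% interval -0.56 to 1.04, limma adjusted p = 0.837). At about 10.4 and 12.6 reads per library, only large changes of this transcript could be detected.

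The first run of library codes holds too few mice for a test, and its values are given beside those of the second. For Synpo, the 2 Rragc+/+ kidneys of the first run had 198.3 and 280.2 normalized counts and its Rragc S74N/+ kidney 363.3, against 206 to 252 and 264 to 393 in the second. For Ptpro, these values were 66.7 and 82.2, and 121.4, against 40.8 to 67.5 and 79.9 to 104. The overlap of the genotypes over all 10 kidneys was thus between kidneys of different runs, and a part of the runs in it was not tested. Nphs1 had a mean of 22.1 in Rragc+/+ and a single value of 26.6 in Rragc S74N/+ in the first run, and means of 28.5 and 20.6 in the second.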
